A study of Mus musculus with 6 samples.

Results

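DNA break repair and checkpoint genes were followed through the development of Eμ-Myc lymphoma. They were 37 genes chosen by symbol: 10 of homologous recombination, 9 of the Fanconi pathway, 6 of break sensing and resection, 4 checkpoint kinases, 7 of end joining, and Msh6 of mismatch recognition. All 37 were found among the 37991 gene identifiers of the count tables, and all 37 were among the 16683 genes with enough counts to be tested. RNA-seq of poly(A) RNA was made from pre-B cells that were sorted from mouse bone marrow by flow cytometry, with 2 libraries for each of 3 stages. By the study's methods, wild type and premalignant cells were sorted as high for B220 and low for both IgM and IgD. Malignant cells were sorted there as positive for B220 and negative for both IgM and IgD, so the sorting gate also differed with malignancy. Wild type cells came from C57BL/6 mice without the transgene, aged 4 to 6 weeks, which by the study's methods were littermates of the premalignant mice. Premalignant cells came from mice of the same age and strain that carried 1 Eμ-Myc allele, a Myc transgene under the immunoglobulin heavy chain enhancer, which drives it in B-lineage cells. Malignant cells came from Eμ-Myc/+ mice taken when they had a spontaneous lymphoma, at 10 to 20 weeks, so that the age of the mice and malignancy cannot be told apart. By the study's methods, the mice of the first 2 stages were all female, and those with lymphoma were of both sexes. The sex behind each malignant library is not given in the sources used here, so sex may also differ with malignancy. Replicates were individual animals, per the study's text, and a lymphoma can be a single expanded clone.

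Levels are given as CPM, read counts scaled to a common library size, with replicate 1 before replicate 2 and the stages in the order wild type, premalignant, malignant. Myc itself was at 33.8 and 41.4 CPM, then 1164 and 1155 CPM, then 1732 and 1578 CPM, low in both wild type libraries and high in all 4 with the transgene. Total counts were 51065861 to 53453055 in the replicate 1 library of each stage and 30031100 to 34543633 in the replicate 2 libraries, so 3 counts stood for 0.0526 to 0.108 CPM. Of the markers of the labelled lineage, Pax5, a transcription factor of B cells, was at 126 to 309 CPM in all 6 libraries. Other markers moved with stage. The sum of 8 B-lineage genes was 6172 to 7069 CPM in wild type, 3141 to 3144 CPM in premalignant and 2647 to 2982 CPM in malignant libraries, and Rag1 of the V(D)J recombinase was at 1945 and 1798 CPM, 329 and 286 CPM, and 154 and 56.7 CPM. Vpreb1, a part of the pre-B cell receptor, was at 115 and 131 CPM in wild type and at 0.146 and 4.05 CPM in malignant libraries. The sum of 8 myeloid genes was 779 to 1708 CPM, 233 to 249 CPM and 55.5 to 113 CPM, that of 6 erythroid genes 255 to 972 CPM, 54 to 127 CPM and 47.7 to 53.7 CPM, and that of 6 T cell genes 44.1 to 87.8 CPM, 15.4 to 33.1 CPM and 1.34 to 15.9 CPM. Summed over 3 genes of mature B cells the levels were 96.4 to 181 CPM, 181 to 233 CPM and 30.9 to 79.0 CPM, over 4 genes of plasma cells 152 to 175 CPM, 67.4 to 80.7 CPM and 49.1 to 86.7 CPM, and over 3 genes of stem or progenitor cells 41.0 to 53.6 CPM, 7.23 to 14.6 CPM and 8.14 to 9.16 CPM. These values stand beside every comparison with wild type cells below, and their part in it was not tested. In bulk RNA, fewer cells of a type and less RNA per cell cannot be told apart.

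A break across both strands of DNA can be repaired by homologous recombination, which resects the ends and copies the sister chromatid and so works in S and G2 phase, or by end joining, in which Ku holds the ends until the DNA ligase IV complex seals them. Fanconi proteins deal with crosslinked strands and stalled forks and hand breaks over to recombination, while the kinases ATM and ATR report breaks and bare single strands to the checkpoint kinases CHK1 and CHK2. Pre-B cells make such breaks on purpose: the RAG proteins cut the immunoglobulin genes, Artemis opens the hairpin ends, and end joining closes them.

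Promoter sequences are shown for 5 genes, Brca2 and Chek1 as rising genes of recombination and the checkpoint, Xrcc5 and Xrcc6 because these partner subunits of Ku moved in opposite directions, and Dclre1c because it had the largest fitted fall. They run 5′ to 3′ on the strand of the gene, from 250 bases before to 50 bases after its start, and come from RefSeq on GRCm38.p6, a later build than that of the count tables. Capitals mark matches, on either strand, to the E2F motifs (TTTGGCGC, TTTCGCGC, TTTCCCGC and TTTGGCGG), the CACGTG E-box of Myc and Max, or the CCAAT box of NF-Y.
Brca2, chr5:150522371-150522670, + strand: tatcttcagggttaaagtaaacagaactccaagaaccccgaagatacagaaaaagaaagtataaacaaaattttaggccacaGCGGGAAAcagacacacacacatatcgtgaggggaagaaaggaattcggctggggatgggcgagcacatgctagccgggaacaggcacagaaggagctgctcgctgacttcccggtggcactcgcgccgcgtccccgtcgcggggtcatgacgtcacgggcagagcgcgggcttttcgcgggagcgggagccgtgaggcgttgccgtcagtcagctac
Chek1, chr9:36726609-36726908, - strand: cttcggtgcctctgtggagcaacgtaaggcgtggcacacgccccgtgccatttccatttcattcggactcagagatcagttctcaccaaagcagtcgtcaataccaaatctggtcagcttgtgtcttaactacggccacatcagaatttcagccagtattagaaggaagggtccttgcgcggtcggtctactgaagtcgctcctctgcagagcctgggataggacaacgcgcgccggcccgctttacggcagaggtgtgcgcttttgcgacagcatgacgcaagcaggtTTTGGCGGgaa
Xrcc5, chr1:72307171-72307470, + strand: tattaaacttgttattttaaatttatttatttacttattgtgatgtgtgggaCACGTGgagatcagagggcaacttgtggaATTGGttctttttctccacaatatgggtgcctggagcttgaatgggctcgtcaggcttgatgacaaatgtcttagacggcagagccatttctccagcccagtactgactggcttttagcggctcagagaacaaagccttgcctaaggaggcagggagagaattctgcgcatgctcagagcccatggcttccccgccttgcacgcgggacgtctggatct
Xrcc6, chr15:82016119-82016418, + strand: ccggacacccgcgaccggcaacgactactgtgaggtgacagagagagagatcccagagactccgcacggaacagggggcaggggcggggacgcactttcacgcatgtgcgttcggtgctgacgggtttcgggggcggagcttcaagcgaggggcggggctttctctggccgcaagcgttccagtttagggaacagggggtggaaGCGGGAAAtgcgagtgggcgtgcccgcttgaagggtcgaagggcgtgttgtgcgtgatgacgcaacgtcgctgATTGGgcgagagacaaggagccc
Dclre1c, chr2:3423881-3424180, + strand: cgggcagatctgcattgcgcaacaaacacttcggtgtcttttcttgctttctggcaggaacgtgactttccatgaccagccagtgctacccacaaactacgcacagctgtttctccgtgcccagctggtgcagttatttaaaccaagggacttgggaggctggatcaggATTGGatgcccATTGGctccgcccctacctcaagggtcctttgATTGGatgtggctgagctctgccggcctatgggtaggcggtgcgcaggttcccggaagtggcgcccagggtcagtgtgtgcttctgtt

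Of the 37 genes, 29 were matched to RefSeq promoters, with 32 promoters between them. An E2F motif was present in 9 of these 32 (28.1%), against 2.37% of all 32851 promoters and 3.99% of the 12794 promoters of tested genes. The 8 genes concerned were Bard1, Brca2, Rad51c, Fancg, Chek1, Chek2, Xrcc6 and Msh6. In Brca2 the match begins at position -168 from the start, in Chek1 at 40, and in Xrcc6 at -46. A CCAAT box was in 19 of the 32 (59.4%), against 37.4% of all promoters and 38.0% of those of tested genes, and Dclre1c has 3, at -81, -70 and -38. The CACGTG E-box was in 1 of the 32 (3.12%), the Xrcc5 promoter, against 7.15% and 9.68%. The TTTGAA element was in 1 of the 32 (3.12%), that of Bard1, against 17.9% and 12.3%. No match overlapped a match to another motif. The median GC content of the 32 promoters was 59.8%, close to the 60.0% of tested genes, where all promoters had 52.7%. Genes with and without an E2F match were called in both directions. Of the 8 genes with an E2F match, 4 were called higher and 1 lower in premalignant vs. wild type cells, by the thresholds given below. Among the 21 with a promoter but no such match, 12 were called higher and 2 lower. Of all tested genes, 19% were called higher and 20.3% lower there. In malignant cells the same counts were 3 and 2 of 8, and 11 and 3 of 21, against 24.9% and 24.3% of all tested genes.

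Most of the genes were higher in Eμ-Myc cells of both stages than in wild type cells, and end joining was the exception. A gene was called when edgeR's adjusted p-value was at most 0.1 and its log2 fold change was at least 0.5 in size. In premalignant vs. wild type cells 22 of the 37 were called higher, where 19% of all tested genes were, and 3 were called lower, where 20.3% of all were. In malignant vs. wild type cells 19 of 37 were called higher, against 24.9% of all tested genes, and 5 lower, against 24.3%. The median log2 fold change of the 37 was 0.71 in premalignant and 0.57 in malignant cells, and that of all tested genes was -0.08 and -0.02. With upper-quartile scaling, which moved the median of all genes by -0.08 and -0.17, the median of the 37 was 0.63 and 0.40. Both libraries of the stage lay above both wild type libraries for 29 of the 37 in premalignant cells and for 24 in malignant cells, where 36.2% and 35.3% of all tested genes did. By the mean of each stage, 6 of the 37 were highest in wild type cells, namely Rad51c and 5 of the 7 end joining genes. Of the others, 21 had their highest mean in premalignant and 10 in malignant cells. Only 1 of the 37 was called between these 2 stages, and the same count was not made over all tested genes.

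**Figure D1:**
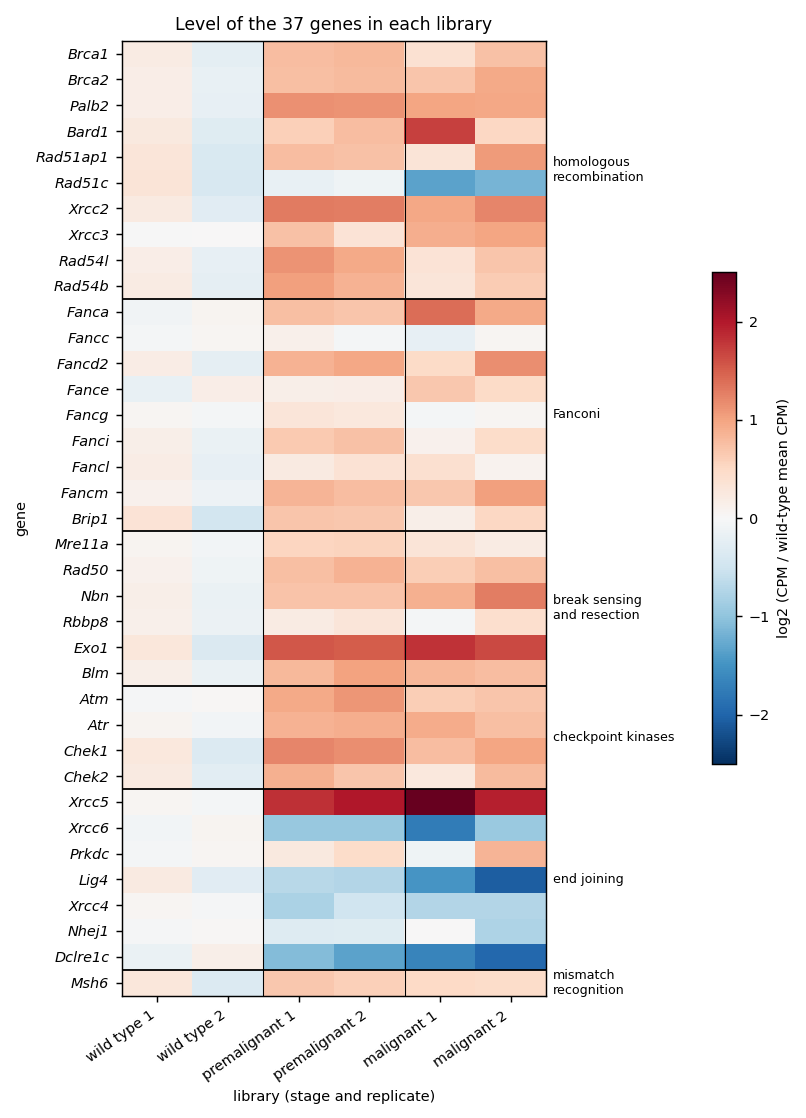
Level of each of the 37 genes (rows, grouped by role) in each of the 6 libraries (columns), as the log2 ratio of its CPM to the mean CPM of the 2 wild type libraries. Red is above and blue below the wild type mean, and the blue entries in premalignant and malignant libraries gather in the end joining rows and in Rad51c, while Xrcc5 stands out in red.

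The calls held to different degrees when the fit or the set of libraries changed. Across 14 alternatives, which were another tool, other scalings, filters and fits, and each library left out in turn, 13 of the 19 genes called higher and 4 of the 5 called lower in malignant cells were called in every one. For premalignant cells these numbers were 7 of 22 and 1 of 3, since the 25 calls dropped to 12 without wild type replicate 2, to 10 without premalignant replicate 1 and to 9 without premalignant replicate 2. Without wild type replicate 2, and likewise without either premalignant library, the premalignant calls of Brca1, Brca2, Rad54b, Fancd2, Fanci, Fancm, Nbn, Mre11a, Chek2 and Msh6 were lost. Those of Xrcc3, Fanca and Xrcc6 were lost without any 1 of the wild type or premalignant libraries, that of Lig4 without wild type replicate 1 or either premalignant library, that of Rad54l without premalignant replicate 1, and those of Rad50 and Blm without premalignant replicate 2. In these fits 1 stage has a single library, which is assumed to vary like the others. The genes called in every alternative in both comparisons were Palb2, Xrcc2, Exo1, Atr, Chek1, Xrcc5 and, as a lower gene, Dclre1c. With 2 libraries against 2, no permutation test of a single gene can go below p = 0.333, so tests rest on the spread that the fit shares across genes.

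Homologous recombination was higher in both Eμ-Myc stages. Of its 10 genes, 7 were called higher and none lower in premalignant cells (median log2 fold change 0.78, with 8 of the 10 below an unadjusted p of 0.05 by edgeR and 8 called by DESeq2), and 7 were higher and 1 lower in malignant cells (median 0.78). Brca2, which prepares resected DNA for strand exchange (ENSMUSG00000041147, chr5:151325205-151372321 on NCBIM37), was at 43.7 and 34.5 CPM in wild type, 66.0 and 67.7 CPM in premalignant and 63.0 and 75.0 CPM in malignant cells. Both Eμ-Myc stages lay above wild type and overlapped each other. The log2 fold change of Brca2 was 0.77 ± 0.17 (SE, adjusted p = 0.0204) in premalignant and 0.82 ± 0.17 (adjusted p = 0.0117) in malignant cells. Its partner Palb2, the bridge between Brca1 and Brca2, was at 17.5 and 13.5 CPM, 34.2 and 33.8 CPM, and 30.8 and 30.3 CPM. With log2 fold changes of 1.13 ± 0.18 (adjusted p = 0.0076) and 0.98 ± 0.18 (adjusted p = 0.00757), it lay above wild type in both stages, and malignant vs. premalignant cells differed by -0.16 ± 0.18 (adjusted p = 0.7).

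Brca1, a ubiquitin ligase subunit that favours resection, was at 83.3 and 60.4 CPM in wild type, 122 and 126 CPM in premalignant and 93.4 and 120 CPM in malignant cells. All 4 Eμ-Myc libraries were above the wild type ones, but the lower malignant library exceeded the higher wild type library by little. Its log2 fold change was 0.78 ± 0.20 (adjusted p = 0.0318) in premalignant cells and 0.57 ± 0.20 (adjusted p = 0.0644) in malignant cells. Neither call held in all 14 alternatives, over which the fitted value was 0.57 to 1.04 in premalignant and 0.36 to 0.82 in malignant cells. The premalignant call was lost without wild type replicate 2 or either premalignant library, and the malignant one in 7 of the 14 alternatives, among them without wild type replicate 2, malignant replicate 2 or either premalignant library. Bard1, its partner in the ligase, was at 54.9 and 37.8 CPM, 69.9 and 79.2 CPM, and 151 and 66.2 CPM. Malignant replicate 1 stood apart: the log2 fold change of 1.23 ± 0.39 (adjusted p = 0.0455) in malignant cells was 0.52 and not called without it, and in premalignant cells 0.68 was not called (adjusted p = 0.223).

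Xrcc2, Xrcc3 and Rad51c, whose proteins act in shared complexes of recombination, did not move together. Xrcc2 was at 13.4 and 9.37 CPM in wild type, 28.2 and 27.7 CPM in premalignant and 22.4 and 26.6 CPM in malignant cells, with log2 fold changes of 1.29 ± 0.23 (adjusted p = 0.0105) and 1.1 ± 0.23 (adjusted p = 0.0112). Xrcc3 was at 27.3 and 27.9 CPM, 45.6 and 35.2 CPM, and 51.8 and 54.5 CPM, with log2 fold changes of 0.55 ± 0.17 (adjusted p = 0.0534, a call lost in 6 of the 14 alternatives, among them without any 1 of the wild type or premalignant libraries) and 0.94 ± 0.17 (adjusted p = 0.00705). Rad51c went the other way. It was at 18.8 and 11.5 CPM in wild type, 13.3 and 14.1 CPM in premalignant and 5.98 and 6.74 CPM in malignant cells, so wild type and premalignant cells overlapped and both malignant libraries lay below all others. Against wild type, the log2 fold change was -0.14 ± 0.29 (adjusted p = 0.739) in premalignant and -1.25 ± 0.30 (adjusted p = 0.0171) in malignant cells, 2.38-fold lower, and this call held in all 14 alternatives. Rad51c acts in 1 complex with Xrcc3 and in another with Xrcc2, the genes that rose.

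Rad54l and Rad54b, which encode DNA translocases of recombination, had their highest means in premalignant cells. Rad54l was at 54.1 and 41.9 CPM, 104 and 92.2 CPM, and 60.6 and 77.4 CPM, and 15.4% of its exonic bases also belong to Lrrc41. For Rad54l the log2 fold change was 1.03 ± 0.20 (adjusted p = 0.0125) in premalignant and 0.52 ± 0.20 (adjusted p = 0.0731) in malignant cells, where the call was lost in 7 of the 14 alternatives. Rad54b was at 27.2 and 20.2 CPM, 48.1 and 43.3 CPM, and 29.1 and 36.9 CPM for the longer of 2 identifiers with this symbol, and its log2 fold change was 0.95 ± 0.21 (adjusted p = 0.0205) in premalignant cells and 0.48 ± 0.21 (adjusted p = 0.117) in malignant cells. The shorter identifier, at 5.25 to 9.28 CPM over the 6 libraries, was called in neither. It had 0.50 ± 0.29 (adjusted p = 0.239) in premalignant and -0.10 ± 0.29 (adjusted p = 0.806) in malignant cells. Rad51ap1, a cofactor of strand exchange, had 52.2 and 32.7 CPM, 72.6 and 70.5 CPM, and 52.7 and 88.5 CPM. Its log2 fold changes of 0.75 ± 0.31 (adjusted p = 0.113) and 0.73 ± 0.31 (adjusted p = 0.104) were not called by edgeR, while DESeq2 called both.

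**Figure D2:**
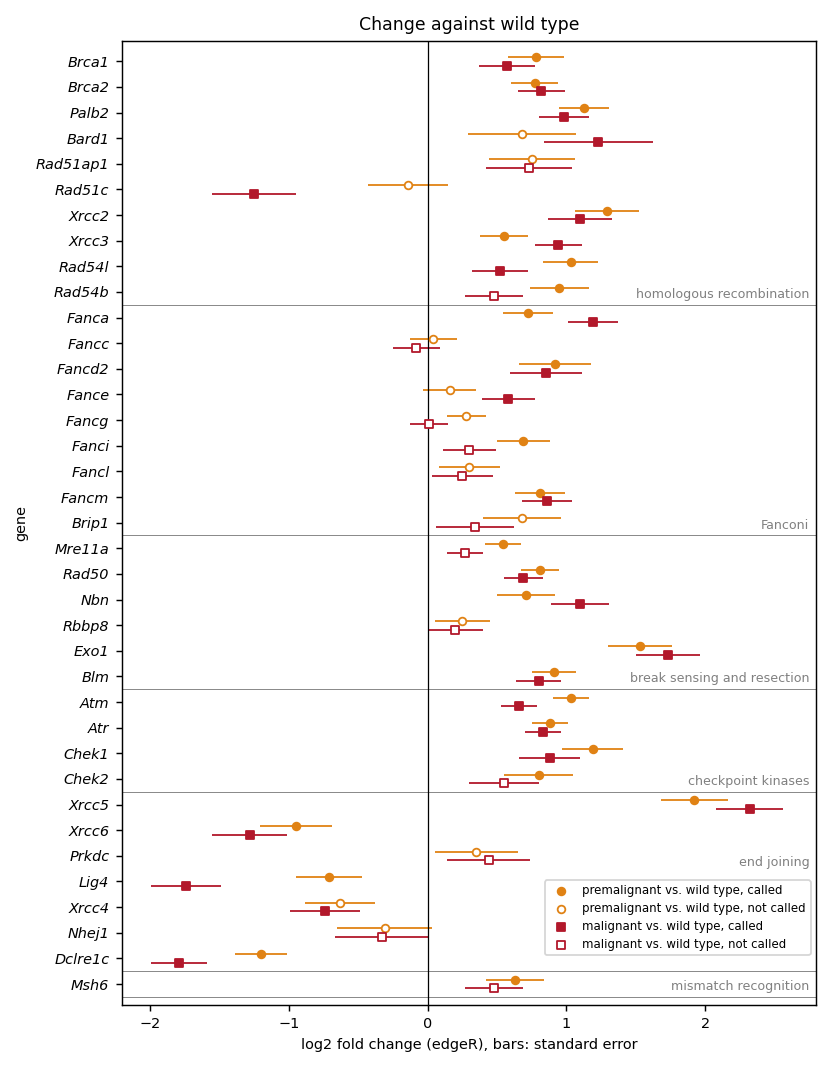
Log2 fold change (x axis, edgeR) of each of the 37 genes in premalignant (circles) and malignant (squares) vs. wild type cells, with bars for the standard error and filled symbols for called genes. Most points lie to the right of 0, and Xrcc5 lies furthest right. Rad51c, Xrcc6, Lig4, Xrcc4, Nhej1 and Dclre1c in both comparisons, and Fancc in malignant cells, lie to the left.

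Of the 9 Fanconi genes, 4 were called higher in premalignant cells (Fanca, Fancd2, Fanci and Fancm) and 4 in malignant cells (Fanca, Fancd2, Fance and Fancm), and none was called lower by edgeR. The medians were 0.68 and 0.34. Fanca of the core complex was at 37.3 and 41.5 CPM in wild type, 66.6 and 63.4 CPM in premalignant and 104 and 76.4 CPM in malignant cells, so no 2 stages overlapped. Its log2 fold change was 0.72 ± 0.18 (adjusted p = 0.0294) in premalignant cells and 1.19 ± 0.18 (adjusted p = 0.0041) in malignant cells, and 7.68% of its exonic bases are shared with Zfp276. Fancm, the translocase that docks the core complex on DNA, was at 37.2 and 31.4 CPM, 62.1 and 58.5 CPM, and 54.5 and 69.8 CPM, with 0.81 ± 0.18 (adjusted p = 0.0192) and 0.86 ± 0.18 (adjusted p = 0.0112).

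Fancd2 and Fanci encode the pair of proteins that the core complex ubiquitinates. Fancd2 was at 64.8 and 48.4 CPM, 103 and 110 CPM, and 79.0 and 126 CPM, with 0.92 ± 0.26 (adjusted p = 0.0393) and 0.85 ± 0.26 (adjusted p = 0.037), and both calls were lost without wild type replicate 2, the premalignant one also without either premalignant library. Fanci was at 40.9 and 32.9 CPM, 57.9 and 60.9 CPM, and 40.0 and 50.9 CPM. It was called in premalignant cells (0.69 ± 0.19, adjusted p = 0.0359) and had 0.30 (adjusted p = 0.236) in malignant cells, where 1 library lay within the wild type range. Of the exonic bases of Fanci, 14.8% are shared with Polg, and of those of Fancl, 13.7% with Vrk2. Fance, which bridges the core complex to Fancd2, was at 17.2 and 22 CPM, 21.8 and 21.9 CPM, and 31.3 and 27.4 CPM, so premalignant cells lay within the wild type range, and its log2 fold change of 0.58 ± 0.19 (adjusted p = 0.0498) in malignant cells was lost in 7 of the 14 alternatives. The core members Fancc, Fancg and Fancl, with Fancl the ubiquitin ligase among them, were called in neither comparison, at log2 fold changes between -0.08 and 0.30. Brip1, the helicase that binds Brca1, had 0.68 (adjusted p = 0.113) and 0.34 (adjusted p = 0.37), and DESeq2 called it higher in premalignant cells.

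Of the 6 genes of break sensing and resection, 5 were called higher in premalignant and 4 in malignant cells, with medians of 0.76 and 0.75, and Rbbp8 in neither. Exo1, the exonuclease of long-range resection (ENSMUSG00000039748, chr1:177810909-177841527 on NCBIM37), was at 33.1 and 21.1 CPM in wild type, 79.6 and 77.0 CPM in premalignant and 94.7 and 84.8 CPM in malignant cells, and no 2 stages overlapped. For Exo1 the log2 fold change was 1.53 ± 0.23 (adjusted p = 0.0062) and 1.73 ± 0.23 (adjusted p = 0.00257), or 2.88-fold and 3.31-fold. Per length of exon (RPKM, CPM per kilobase of exon), Exo1 moved from rank 29 of the 37 in wild type (4.92 RPKM) to rank 10 in malignant cells (16.3 RPKM). Blm, the helicase that works with Exo1 and later unwinds recombination intermediates, was at 58.0 and 46.7 CPM, 91.6 and 105 CPM, and 93.1 and 89.8 CPM, with 0.91 ± 0.16 (adjusted p = 0.0102) and 0.80 ± 0.16 (adjusted p = 0.0096).

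Mre11a, Rad50 and Nbn encode the complex that first binds the break and activates ATM. Rad50 was at 74.6 and 64.3 CPM, 117 and 126 CPM, and 107 and 117 CPM, with 0.81 ± 0.14 (adjusted p = 0.00979) and 0.69 ± 0.14 (adjusted p = 0.0101). Nbn was at 17.3 and 13.9 CPM, 25.5 and 25.5 CPM, and 28.9 and 37.8 CPM, with 0.71 ± 0.21 (adjusted p = 0.0444) and 1.1 ± 0.21 (adjusted p = 0.00813). Mre11a, the nuclease, had the smallest fitted changes of the complex, with 60.0 and 55.1 CPM, 83.4 and 84.1 CPM, and 72.0 and 66.7 CPM. It was called in premalignant cells (0.54 ± 0.13, adjusted p = 0.0252), a call lost with upper-quartile scaling among others, and had 0.27 (adjusted p = 0.143) in malignant cells, although its libraries did not overlap wild type there either. Rbbp8, the cofactor of Mre11a in starting resection, was at 64.2 and 53.4 CPM, 67.5 and 72.5 CPM, and 57.0 and 78.5 CPM, with 0.25 and 0.20.

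All 4 checkpoint kinases were called higher in premalignant cells and 3 in malignant cells, with medians of 0.95 and 0.74. Chek1, which encodes the kinase CHK1 that holds back late origins and mitosis (ENSMUSG00000032113, chr9:36516067-36534650 on NCBIM37), was at 40.3 and 26.6 CPM in wild type, 78.6 and 74.6 CPM in premalignant and 56.9 and 66.6 CPM in malignant cells. No 2 stages overlapped, and the level was highest in premalignant cells. Against wild type, it had log2 fold changes of 1.19 ± 0.22 (adjusted p = 0.0119) and 0.88 ± 0.22 (adjusted p = 0.0208). Atr, the kinase that activates CHK1 at bare single strands, was at 66.8 and 61.1 CPM, 116 and 120 CPM, and 121 and 107 CPM, with 0.88 ± 0.13 (adjusted p = 0.00642) and 0.83 ± 0.13 (adjusted p = 0.00464).

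Atm, the kinase of double-strand breaks, was at 76.9 and 80.8 CPM in wild type, 152 and 169 CPM in premalignant and 120 and 128 CPM in malignant cells, and again no 2 stages overlapped. Its log2 fold change was 1.03 ± 0.13 (adjusted p = 0.0039) in premalignant cells and 0.66 ± 0.13 (adjusted p = 0.00898) in malignant cells, where upper-quartile scaling brought it to 0.49 and ended the call. Chek2, the target of ATM, was at 23.5 and 16.9 CPM, 37.5 and 32.7 CPM, and 24.3 and 35.1 CPM. It was called in premalignant cells (0.80 ± 0.25, adjusted p = 0.0576), a call lost without wild type replicate 2 or either premalignant library, and had 0.55 (adjusted p = 0.125) in malignant cells, where malignant replicate 1 was barely above wild type.

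End joining differed from the other classes in direction. Of its 7 genes, 1 was called higher and 3 lower in premalignant cells and 1 higher and 4 lower in malignant cells, with medians of -0.63 and -0.74. The subunits of Ku, which encircles the broken end as a dimer, moved in opposite directions. Xrcc6, which encodes the smaller subunit (ENSMUSG00000022471, chr15:81818265-81870515 on NCBIM37), was at 489 and 537 CPM in wild type, 265 and 265 CPM in premalignant and 153 and 269 CPM in malignant cells, so both Eμ-Myc stages lay below wild type and overlapped each other. Its log2 fold change was -0.95 ± 0.26 (adjusted p = 0.0383) and -1.28 ± 0.27 (adjusted p = 0.0108). The premalignant call was lost without any 1 of the wild type or premalignant libraries, and 7.69% of its exonic bases are shared with Pppde2. Xrcc5, which encodes the larger subunit (ENSMUSG00000026187, chr1:72353995-72441526 on NCBIM37), was at 16.8 and 15.8 CPM in wild type, 57.8 and 65.3 CPM in premalignant and 99.6 and 63.0 CPM in malignant cells. It had the largest rise of the 37 in both comparisons, with 1.92 ± 0.24 (adjusted p = 0.00389) and 2.32 ± 0.24 (adjusted p = 0.0013), or 3.78-fold and 5.0-fold, and was called in all 14 alternatives.

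Per length of exon, Xrcc6 was at 109 and 120 RPKM in wild type cells, where Xrcc5 was at 6.56 and 6.17 RPKM, a ratio of 16.7 and 19.4. In premalignant cells Xrcc6 at 59.2 and 59.2 RPKM stood against Xrcc5 at 22.6 and 25.6 RPKM, a ratio of 2.62 and 2.32. In malignant cells the ratio was 0.876 in replicate 1 and 2.44 in replicate 2. The transcripts of the partners were thus far apart in wild type cells and within a few-fold in all 4 Eμ-Myc libraries, with Xrcc5 above Xrcc6 in 1 of them. Xrcc6 held the highest RPKM of the 37 genes in all 3 stages, at means of 115, 59.2 and 47.1 RPKM, and Xrcc5 went from rank 22 to rank 3 in both Eμ-Myc stages.

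The enzymes that follow Ku fell or were not called. Dclre1c, which encodes Artemis, the nuclease that opens hairpin ends in V(D)J recombination (ENSMUSG00000026648, chr2:3341403-3381402 on NCBIM37), was at 80.1 and 99.7 CPM in wild type, 42.3 and 35.7 CPM in premalignant and 28.8 and 23.2 CPM in malignant cells. The stages were in that order with no overlap, and the log2 fold changes were -1.20 ± 0.19 (adjusted p = 0.00763) and -1.79 ± 0.20 (adjusted p = 0.00145), 2.30-fold and 3.46-fold lower, with both calls held in all 14 alternatives. Lig4, which encodes the ligase (ENSMUSG00000049717, chr8:9970020-9977686 on NCBIM37), was at 155 and 110 CPM, 82.2 and 80.0 CPM, and 47.6 and 31.9 CPM, again in order without overlap. Its log2 fold change was -0.71 ± 0.24 (adjusted p = 0.0715) in premalignant cells, a call lost without wild type replicate 1 or either premalignant library, and -1.74 ± 0.25 (adjusted p = 0.00338) in malignant cells. By mean RPKM, Lig4 went from rank 2 of the 37 in wild type to rank 6 and then 20, and Dclre1c from rank 10 to 34 and 35.

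Xrcc4, the scaffold of the ligase, was at 10.4 and 9.88 CPM, 5.87 and 7.20 CPM, and 6.09 and 6.06 CPM. It was called lower in malignant cells (-0.74 ± 0.25, adjusted p = 0.0575), a call lost in 6 of the 14 alternatives, among them without either wild type or either premalignant library, and had -0.63 (adjusted p = 0.105) in premalignant cells. DESeq2 called Xrcc4 lower in premalignant cells as well. Nhej1, a further scaffold, was at 4.09 to 7.11 CPM over the 6 libraries and had -0.31 and -0.33, neither called. Prkdc, the kinase that Ku recruits, was at 62.7 and 66.9 CPM, 76.6 and 88.6 CPM, and 59.8 and 116 CPM, so the malignant libraries lay on both sides of wild type, and its log2 fold changes of 0.35 (adjusted p = 0.411) and 0.44 (adjusted p = 0.283) were not called. Rag1, which makes the breaks that this pathway closes, and Vpreb1 also fell in the same libraries, with the values given above. Their part in the fall of these genes was not tested.

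**Figure D3:**
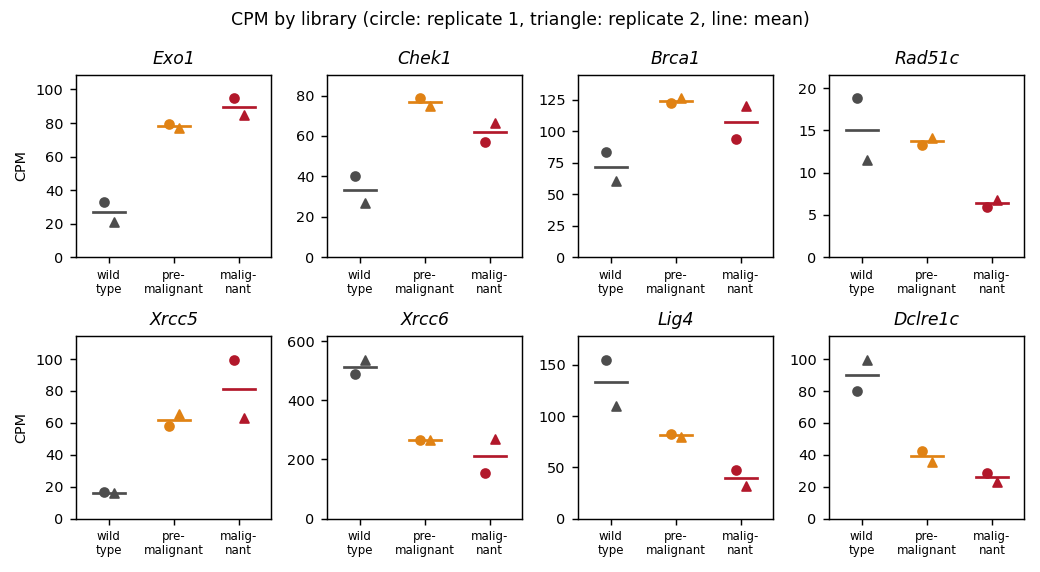
CPM of 8 genes (1 panel each, y axis from 0) in wild type, premalignant and malignant cells, with a circle for replicate 1, a triangle for replicate 2 and a line for the mean. Exo1, Chek1, Brca1 and Xrcc5 are lowest in wild type cells, Xrcc6, Lig4 and Dclre1c are highest there, and Rad51c is lower in malignant cells than in both other stages.

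Msh6, which recognises mismatches, was at 150 and 97.3 CPM in wild type, 197 and 187 CPM in premalignant and 174 and 171 CPM in malignant cells. It was called higher in premalignant cells (0.63 ± 0.21, adjusted p = 0.0664), a call lost without wild type replicate 2 or either premalignant library, and had 0.48 (adjusted p = 0.115) in malignant cells, which with the replicate block was 0.50 (adjusted p = 0.0853) and called.

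Few of the 37 genes, like few of all tested genes, were called between the malignant and the premalignant stage. None was called higher by edgeR, where 3.73% of all tested genes were, and 1 was called lower, where 2.45% of all were. With upper-quartile scaling the share of higher genes among all calls in this comparison went from 60.4% to 49.7%. The median log2 fold change of the 37 was -0.11, against 0.04 for all tested genes, and fitted values were below 0 for 27 of the 37. Both malignant libraries lay below both premalignant ones for 15 of the 37 and above them for 5. Of all tested genes, 25.2% and 25.9% did so. With 2 libraries per stage, a gene that was not called may still differ. Of the 37, 6 had an unadjusted p below 0.05 by edgeR and 3 were called by DESeq2, all of them lower. The call was Lig4, at -1.03 ± 0.25 (adjusted p = 0.0955), which was lost in the fit of these 2 stages alone and without any 1 of the wild type or premalignant libraries. Rad51c had -1.11 ± 0.30 (adjusted p = 0.117) and Dclre1c -0.59 ± 0.19 (adjusted p = 0.172), and DESeq2 called both. The checkpoint kinases were all lower in malignant cells by fitted value, between -0.37 and -0.05, and none was called by edgeR or DESeq2, with 1 of 4 below an unadjusted p of 0.05. More of the 37 were called without malignant replicate 2, in both directions, and more were called without malignant replicate 1. The counts over all tested genes were higher in these fits too.

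Replicates of 1 stage also differed, most in wild type and malignant cells. In wild type cells 28 of the 37 were higher in replicate 1 than in replicate 2, with a median log2 ratio of 0.31, where that of all tested genes was 0.0. In the same direction, the sum of 15 S phase genes differed by 0.46 on the log2 scale between these libraries. In premalignant cells 17 of 37 were higher in replicate 1 and none of the 37 differed by more than 0.5, while in malignant cells 15 of 37 were higher in replicate 1 and 9 differed by more than 0.5. The median size of the log2 ratio was 0.32, 0.08 and 0.33 over the 37 in the 3 stages and 0.26, 0.16 and 0.41 over all tested genes.

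Several of the genes are transcribed mainly in S phase, so they were set beside lists of cell cycle genes. Of 15 S phase genes, the Mcm2 to Mcm7 helicase and others, 13 were called higher in premalignant and 12 in malignant cells, with medians of 1.01 and 0.90, and their sum was 3267 and 2374 CPM in wild type, 5357 and 5537 CPM in premalignant and 5021 and 5211 CPM in malignant libraries. Of 15 genes of G2 and mitosis, 6 and 2 were called higher, with medians of 0.61 and 0.14, the latter at -0.03 with upper-quartile scaling. Beside both lists, 19% of all tested genes were called higher in premalignant and 24.9% in malignant cells. The summed CPM of the 10 recombination genes was 392 and 290.0 CPM, 604 and 590.0 CPM, and 560.0 and 582 CPM. As a share of the S phase sum it was 12.0% and 12.2% in wild type, 11.3% and 10.7% in premalignant and 11.2% and 11.2% in malignant libraries. The range of this summed share over all 6 libraries was thus narrow, although the sum itself differed by stage. Its genes did not all keep their own share. Bard1 was at 3.0% in malignant replicate 1 and at 1.27% to 1.68% in the other libraries. Rad51c was at 0.575% and 0.484% in wild type, 0.249% and 0.255% in premalignant and 0.119% and 0.129% in malignant libraries. Break sensing and resection lay at 8.67% to 10.7% and the checkpoint kinases at 6.35% to 7.81% of the S phase sum, and the Fanconi genes at 10.2% and 11.9% in wild type against 8.57% to 9.50% in the other 4 libraries. Single genes could depart from their class: Exo1 was at 1.01% and 0.89% of that sum in wild type and at 1.39% to 1.89% in Eμ-Myc libraries. How far a difference in the share of cycling cells enters the fold changes was not tested.

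End joining did not follow that sum. Its 7 genes summed to 821 and 847 CPM in wild type, 536 and 547 CPM in premalignant and 402 and 513 CPM in malignant libraries, or 25.1% and 35.7% of the S phase sum in wild type and 8.0% to 10.0% in Eμ-Myc libraries. Xrcc6 made up 59.6% and 63.4% of the class in wild type and 38.0% to 52.4% in the other libraries. Without Xrcc6 the class was at 332 and 310.0 CPM, 270.0 and 282 CPM, and 249 and 244 CPM, still lower in all 4 Eμ-Myc libraries. The largest of the remaining genes in wild type were Lig4 (155 and 110 CPM) and Dclre1c (80.1 and 99.7 CPM), which both fell. The median RPKM of the 7 genes overlapped between stages. It was 6.56 and 6.75 in wild type, 6.04 and 6.99 in premalignant, and 6.67 and 7.49 in malignant libraries. The sums thus follow the most abundant genes rather than the class as a whole. The ratio of the recombination sum to the end joining sum was 0.477 and 0.342 in wild type cells, 1.13 and 1.08 in premalignant and 1.39 and 1.13 in malignant cells, and without Xrcc6 it was 1.18 and 0.936, 2.23 and 2.09, and 2.25 and 2.38. With or without it, the ratio was higher in every Eμ-Myc library than in either wild type library.

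**Figure D4:**
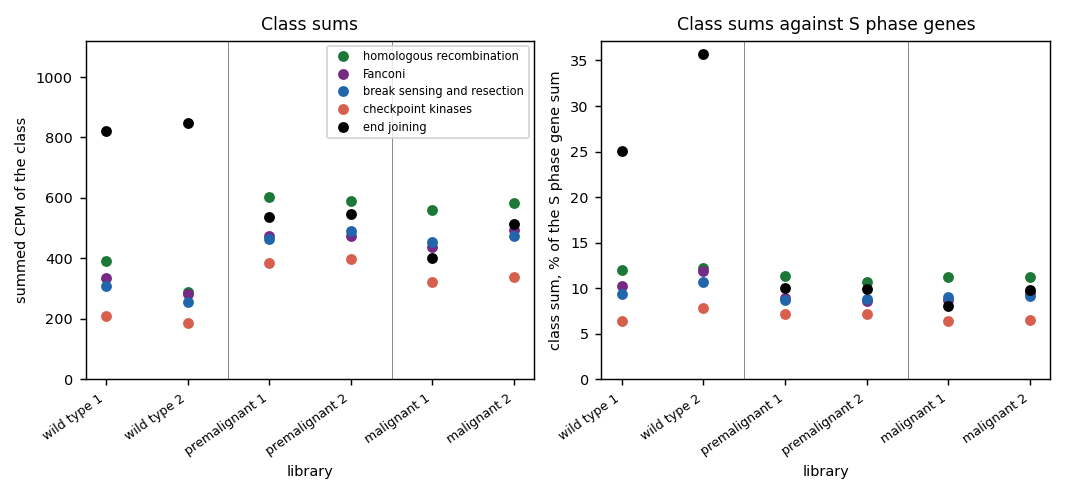
Left, summed CPM of the genes of each of the 5 classes with several genes (y axis) in each of the 6 libraries (x axis). Right, the same sums as a percentage of the summed CPM of 15 S phase genes. On the left the end joining sum is above the others in wild type libraries only, and on the right the homologous recombination, Fanconi, resection and checkpoint kinase sums stay between 6.35% and 12.2% in all libraries.

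A further 62 genes of the same pathways were also called higher more often than lower against wild type. Of these, 32 were called higher and 4 lower in premalignant cells and 33 and 6 in malignant cells, where 19% and 20.3% of all tested genes were called higher and lower in premalignant and 24.9% and 24.3% in malignant cells, and their median log2 fold changes were 0.60 and 0.51. From the premalignant to the malignant stage none was called by edgeR, 9 had an unadjusted p below 0.05 and DESeq2 called 4. In malignant vs. wild type cells, other recombination and Fanconi genes had 11 of 25 higher and 3 lower, checkpoint and break signalling genes 10 of 20 and 1, other mismatch repair genes 5 of 6 and 0 (5 below an unadjusted p of 0.05, 4 called by DESeq2), and other end joining and single-strand break repair genes 7 of 11 and 2. The malignant count over the 62 was lower without wild type replicate 2. The premalignant count was lower without wild type replicate 2 or either premalignant library. Counts over all tested genes were lower in these fits too.

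Of the called genes of this list whose stages did not overlap and whose higher stage averaged 10 CPM or more, the 5 with the largest rise in malignant cells were Poll, Timeless, Mlh3, Rad1 and Dna2. Timeless, which keeps the replication fork and the ATR response coupled, was at 83.3 and 74.0 CPM in wild type, 155 and 162 CPM in premalignant and 196 and 217 CPM in malignant cells, with 1.39 ± 0.14 (adjusted p = 0.00109) in malignant cells. The stages stood in order without overlap. Mlh3 of mismatch repair had 1.36 ± 0.30 (adjusted p = 0.013), Rad1 of the checkpoint clamp 1.27 ± 0.28 (adjusted p = 0.014), and Dna2, a nuclease of long-range resection like Exo1, 1.14 ± 0.23 (adjusted p = 0.0102). Poll, a polymerase that fills gaps in end joining, was at 8.59 and 9.34 CPM, 14.3 and 15.7 CPM, and 13.6 and 34.2 CPM, so that its log2 fold change of 1.41 ± 0.42 (adjusted p = 0.0377) leaned on malignant replicate 2. Without that library it was 0.62, and the call was lost without either wild type library.

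By the same rule, genes with the largest fall included Polm, Mus81, Wrn and Uimc1. Polm, the other gap-filling polymerase of end joining, was at 235 and 370 CPM in wild type, 102 and 102 CPM in premalignant and 163 and 40.1 CPM in malignant cells. Both Eμ-Myc stages lay below wild type, with the malignant libraries on either side of the premalignant ones, and the log2 fold change of -1.58 ± 0.60 (adjusted p = 0.0782) lost its call in 5 of the 14 alternatives, among them without either wild type or either premalignant library. Mus81, a nuclease of recombination intermediates, had -1.40 ± 0.21 (adjusted p = 0.004), the Wrn helicase -1.14 ± 0.13 (adjusted p = 0.00177), and Uimc1, which brings a Brca1 complex to ubiquitin at breaks, -0.65 ± 0.14 (adjusted p = 0.0126). Mus81, Wrn and Uimc1, and Timeless, Mlh3, Rad1 and Dna2 among the rising genes, were called in all 14 alternatives.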

How the data were processed

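RNA-seq libraries of 2 biological replicates per stage were sequenced by the authors as single-end reads of 50 bp, aligned with TopHat and counted per Ensembl gene with HTSeq, and the deposited values are raw counts. The submitters' processing notes also name CASAVA 1.8.2, Bowtie and mm9. The HTSeq options are not given in the sources used here, so reads over exons shared by genes, or on the other strand, may have been kept or dropped. The authors' DEseq tables (mean signal, fold changes and p-values of malignant cells against each of the other stages) were not used.

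Symbols, coordinates and exon lengths came from GENCODE vM1 on NCBIM37 (mm9), which names 37205 of the 37991 identifiers. All 6 libraries entered 1 fit of the quasi-likelihood test of edgeR 4.0.16 under R 4.3.3 with stage as the only term, TMM scaling and edgeR's default filter. This scaling takes most genes as unchanged, so a change in total RNA per cell is not seen. P-values were adjusted over all 16683 tested genes by Benjamini-Hochberg, and the thresholds are those of the study's methods, which used DEseq. The script was tested on simulated data. Standard errors are the log2 fold change over the square root of F. CPM use TMM-scaled totals, RPKM divide them by exon length. The alternatives were DESeq2 1.42.0, upper-quartile and RLE scaling, no filter, a minimum of 10 counts per library, the replicate block, fits of 2 stages, each library left out, an FDR of 0.05, no minimum fold change, and a minimum log2 fold change of 1 in size. A newer quasi-likelihood fit and a count without genes that share over 5% of their exonic bases were added after seeing the data. Promoters on GRCm38.p6 were searched for the motifs on both strands.

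The 37 genes and all lists were chosen with earlier results of these data known. All 37 are named. Of the 62 other pathway genes, those named were the 5 that rose most and the 5 that fell most among the called ones whose stages did not overlap and whose higher stage had a mean of 10 CPM or more, for malignant cells against each other stage, and 1 gene under this rule is not reported here.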

Additional observations from a re-analysis of the deposited data

How the results depend on the processing

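No call of the 37 genes or of the other genes named reversed its direction in any alternative. In malignant vs. wild type cells the 24 calls among the 37 genes stayed between 19 and 27 with 1 library left out and became 10 (6 higher, 4 lower) when a log2 fold change of 1 in size was asked for. Under the same setting the 39 calls of other pathway genes became 14 and the 14 of cell cycle genes 7. Leaving out 1 library gave 22 to 38 other pathway genes. In premalignant vs. wild type cells that setting left 8 of the 25 calls among the 37, 7 of 36 other pathway genes, 8 of 19 cell cycle genes and 4282 of all 6563. With 1 library left out these counts ranged over 9 to 29, 6 to 43, 6 to 26 and 2094 to 8455.

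In malignant vs. premalignant cells the 1 call among the 37 became 3 with DESeq2, 2 with upper-quartile scaling, with at least 10 counts in every library or with the newer quasi-likelihood fit, 4 with no filter, and 0 in the fit of the 2 stages or at an FDR of 0.05. The other pathway genes went from 0 to 4 with DESeq2 or no filter and to 1 with upper-quartile scaling, at least 10 counts or the newer fit, the cell cycle genes from 0 to 1 with DESeq2 and 7 with no filter, and all genes from 1031 to 2113, to 2810 with no filter, to 258 in the fit of the 2 stages and to 407 at an FDR of 0.05. Leaving out 1 library gave 0 to 9 of the 37, 0 to 9 other pathway genes, 0 to 6 cell cycle genes and 0 to 3805 of all genes. The cause was not tested.

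Replicate numbers are shared by the stages, but the replicates are individual animals. By the study's methods, the wild type mice were littermates of the premalignant ones. Which libraries came from 1 litter is not given, and nothing says that equal numbers share a batch or a litter. Over genes, the departures of libraries with equal numbers from the mean of their stage had correlations of 0.509 (wild type and premalignant), 0.186 (wild type and malignant) and 0.257 (premalignant and malignant). With the replicate block, 25, 25 and 1 of the 37 genes were called in the 3 comparisons and 8224, 6575 and 940 of all genes, and the call of Msh6 in malignant vs. wild type cells was the only one of the 37 that changed. Replicate 1 was the deeper library in each stage. With 2 libraries per stage, p-values measure the spread between these libraries only.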
